A study of Mus musculus with 12 samples.

Results

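Type I interferon-stimulated genes were followed in mouse CD8+ T cells before activation, after activation in plain media and after activation with sodium lactate. The set held 40 of the 13780 genes in the count table. It was selected with measured values of these same libraries in view, and which comparison guided the choice is not stated. Values of the 40 genes, and which of them a fit across all genes called, are therefore given only as a description. No test of the set was made, and the counts of called genes and the shares of all genes beside them support no conclusion about it. All 40 genes were found in the table, and 40 of 40 passed a filter of at least 1 CPM (counts scaled to library size) in 3 or more of the 12 libraries. Of these, 6 (Ifit3, Ifit3b, Oas1a, Oasl1, Oasl2 and Ifi44) passed only through the naive libraries, where they were higher, so how they entered the fit favoured a call lower than naive.

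Type I interferons bind a receptor made of IFNAR1 and IFNAR2, whose kinases JAK1 and TYK2 phosphorylate STAT2. Phosphorylated STAT2 acts with IRF9 in the transcription factor complex ISGF3, which binds interferon-stimulated response elements in the promoters of antiviral genes. In T cells, interferon acts beside antigen receptor, costimulation and cytokine signals, and resting lymphocytes hold a low tonic expression of many interferon-stimulated genes.

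CD8+ T cells came from spleens of adult wild type C57BL/6J mice and were purified by positive selection on magnetic beads. Their RNA was sequenced as mRNA libraries. The naive group was frozen straight after purification, with no activation and no treatment. The media group was activated for 72 h with beads carrying antibodies to CD3 and CD28 and with 10 U/ml of recombinant human IL-2 in plain media, and the lactate group was activated in the same way in media with 40 mM sodium lactate added. Each group had 4 libraries, with 14726904 to 21478137 assigned counts a library, and the control for lactate was plain media rather than media with the same amount of sodium chloride.

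Lactate against media compares activation with and without added sodium lactate, so lactate cannot be told apart from the added sodium and osmolality. Media against naive compares cells after 72 h of activation and culture with IL-2 with cells frozen straight after purification. These groups also differed in the transcripts of other cells, given below. Levels are given as CPM after TMM scaling, which corrects library totals for differences in composition, and genes are ranked by level only in TPM, which also divides by gene length. Differences are log2 fold changes with their standard error, from edgeR's quasi-likelihood fit to all 12 libraries. A gene is named as called where its p-value was at most 0.01 after Benjamini-Hochberg adjustment across the 13767 genes tested. The 3 comparisons share samples, since the media libraries enter 2 of them and the naive libraries enter 2, so their values are set side by side and not counted as separate evidence.

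Naive replicate 4 stood apart from the other naive libraries. It held the lowest naive level of 39 of the 40 genes, the exception being Trim25, beside 39.5% of all tested genes, and its level was a median of 0.301 times the mean of naive replicates 1 to 3, against 0.972 over all tested genes. Its level was less than 0.5 times that mean for 30 of the 40 genes, or 75% of them, against 15.2% of all tested genes. Of 6 markers of CD8 T cells, 5 were also lowest in this library among the naive ones: Cd8a at 388 CPM against 849 to 1208 CPM, Cd8b1 at 421 CPM against 780.01 to 1076 CPM, Cd3g at 214 CPM against 374 to 471 CPM, Cd3d at 231 CPM against 279 to 363 CPM and Cd3e at 325 CPM against 354 to 464 CPM in naive replicates 1 to 3. Trac, at 412 CPM against 363 to 454 CPM, was not. Fold changes against naive of the genes given in full, and the counts called over whole lists, are also given without this library. The library numbers in the table's headers fell into a low run, 1 to 9, and a high run, 16 to 26, and what the numbers mark is not stated. Naive replicate 4, media replicate 4 and lactate replicates 3 and 4 carried high numbers, so values are also given within each run.

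Markers of CD8 T cells were detected in all libraries, 6 of 6 of them at 1 CPM or more in each, and summed to 3476, 2998, 4036 and 1991 CPM in naive replicates 1 to 4, 3132, 3879, 3095 and 3506 CPM in media and 2303, 2901, 2488 and 2634 CPM in lactate. The naive libraries also held transcripts of other cells. All 6 B cell markers on the list were present, summing to 956, 1338, 557 and 934 CPM in naive replicates 1 to 4, to 10.2, 15.3, 9.14 and 16.2 CPM in media and to 5.79, 7.65, 6.86 and 6.84 CPM in lactate. All 7 myeloid markers were present and summed to 1566, 1162, 508 and 479.7 CPM in naive, 15, 13.5, 11.9 and 18.7 CPM in media and 5.33, 8.7, 9.69 and 10.9 CPM in lactate. The red cell markers, 4 of 5 of which were in the table, summed to 933, 3369, 378 and 84.1 CPM in naive, 0.231, 0, 0.0557 and 0.0627 CPM in media and 1.9, 0.262, 0.0707 and 0.434 CPM in lactate. Among the naive libraries, replicate 2 therefore held the most red cell marker RNA and replicate 4 the least.

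Conventional dendritic cell markers, 5 of 5 in the table, summed to 115, 150.3, 104 and 68.2 CPM in naive, 2.82, 1.58, 2.29 and 1.25 CPM in media and 4.3, 1.47, 3.96 and 1.88 CPM in lactate. Plasmacytoid dendritic cell markers, 6 of 7 in the table, summed to 589.9, 594, 471 and 399.7 CPM in naive, 195, 178, 189 and 210.3 CPM in media and 352, 299.8, 369 and 331 CPM in lactate. In the naive libraries Siglech, a defining marker, ran at 1.56 to 7.96 CPM. Ccr9 ran at 39.7 to 239 CPM there, Irf8 at 127 to 203, Spib at 43.8 to 114 and Ly6d at 38.4 to 97.3 CPM. Which cells these transcripts came from was not tested. Irf8, which activated T cells also express, made up most of the plasmacytoid sum in the activated libraries. It was called higher with lactate against media (0.89 ± 0.13). In that comparison 4 other markers of the list had lower estimates, among them Spib, called lower at -2.20 ± 0.43. Natural killer markers, 4 of 4 in the table, summed to 227, 241, 254 and 62 CPM in naive, 259, 222, 217 and 265 CPM in media and 391, 361, 357 and 326 CPM in lactate, and Nkg7, which cytotoxic T cells share, made up most of that sum in all libraries but naive replicate 4. The other 3 were called lower in media against naive: Ncr1 at -8.71 ± 0.83, Klrb1c at -6.44 ± 1.02 and Eomes at -2.74 ± 0.32. Eomes was called higher with lactate against media (1.86 ± 0.32). The 3 markers of CD4 T cells summed to 53.6, 55.3, 26.1 and 51 CPM in naive, 55.8, 44.6, 45.3 and 45.8 CPM in media and 82.6, 89.4, 76 and 81.5 CPM in lactate, and Zbtb7b made up most of that sum in the activated libraries. The other markers were lower there. Mean Cd4 was 22.1 CPM in naive, 0.348 CPM in media and 0.541 CPM in lactate, and mean Foxp3 was 2.32, 0.14 and 0.416 CPM. Siglech, Fcgr1 and Xcr1, defining markers of plasmacytoid dendritic cells, macrophages and cross-presenting dendritic cells, had 0 counts in all 8 activated libraries. Other markers of these lists were detected there. Cd68 ran at 11.7 to 18.1 CPM in media and 4.87 to 10.4 CPM in lactate and made up most of the myeloid sum. Tcf4 ran at 12.9 to 16.1 and 8.91 to 11.9 CPM in the same order. Spib ran at 1.11 to 2.13 and 0.141 to 0.434 CPM, and Itgax at 0.167 to 0.509 and 0.21 to 2.72 CPM. The part of these other cells in the levels of the interferon-stimulated genes was not tested. In bulk RNA, fewer cells of a type and less RNA per cell cannot be told apart.

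Summed over the 40 genes, expression was 4021, 3746, 4348 and 1979 CPM in naive replicates 1 to 4, 2169.5, 2898, 1945 and 2196 CPM in media and 1074, 1126, 1091 and 1124 CPM in lactate. All lactate libraries lay below all media libraries, and naive replicate 4 lay within the range of the media libraries. The group means were 3524 ± 1059 CPM (SD, n = 4) in naive, 2302 ± 413 CPM in media and 1104 ± 25.4 CPM in lactate. Of the 40 genes, 26 reached 1 CPM in every library. By group mean, 36 genes were lowest in lactate, beside 32.9% of all tested genes, while naive cells were highest for 32, beside 42.7%, and media for 8 (Stat2, Oas3, Dhx58, Eif2ak2, Parp9, Bst2, Phf11b and Ifi27l2a).

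**Figure D1:**
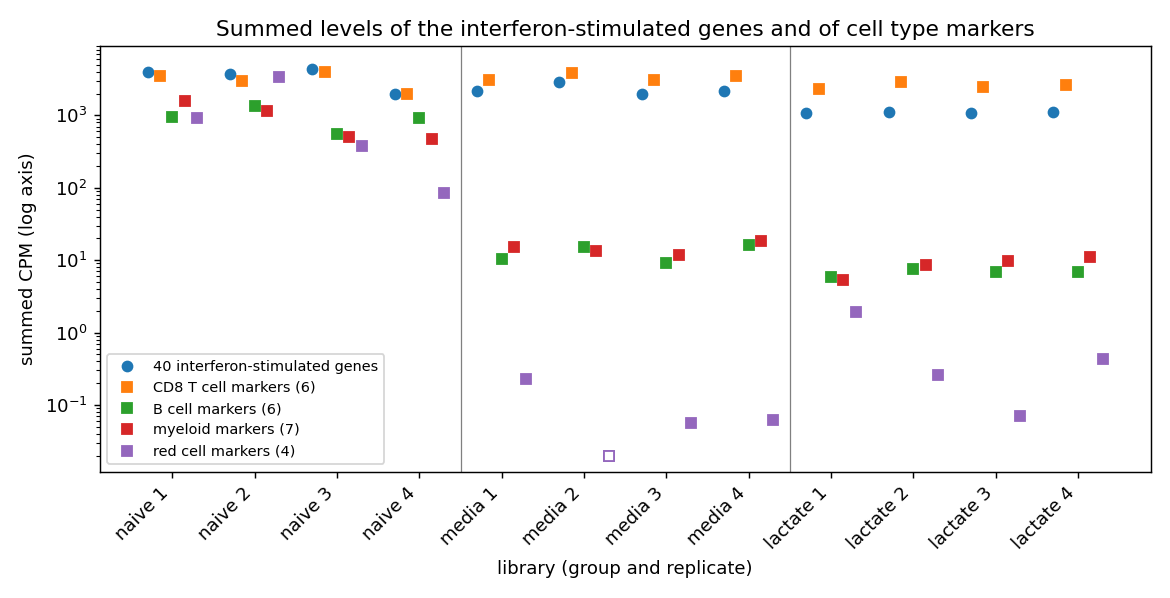
Summed CPM (log axis) of the 40 interferon-stimulated genes and of marker lists for CD8 T cells, B cells, myeloid cells and red cells in each of the 12 libraries, with an open square where the sum was 0. The interferon-stimulated genes sum to 1074 to 1126 CPM in lactate, below the 1945 to 2898 CPM of the media libraries, and the B cell, myeloid and red cell sums are far higher in the naive libraries than in the activated ones.

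Against media, lactate gave lower estimates for 39 of the 40 genes. Called lower were 19, beside 11.1% of all tested genes, with 17 of them at least 2-fold lower, beside 4.84%, and 1 was called higher (Ifi35), beside 13.9% of all tested genes. The other 20 were not called. The median log2 fold change of the set was -1.30, and that of all tested genes was -0.00. For 30 of the 40 genes all lactate libraries lay below all media libraries, a pattern held by 21.5% of tested genes. Among libraries, media replicate 2 held the highest media level of 29 genes, beside 31% of all tested genes. Without it 14 of the 40 genes were called lower, beside 6.66% of all tested genes, and the median was -1.24. Without naive replicate 4, which is in neither group compared, 28 were called lower, beside 16.8% of all tested genes, and 1 higher, beside 18.7%. Of the 34 genes that pass the filter through the activated libraries alone, 17 were called lower and 1 higher, beside 12% and 15.3% of all such genes.

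Within the low run, 2 lactate libraries against 3 media libraries, 39 of the 40 genes were lower with lactate and the median difference was -1.31. Within the high run, 2 lactate libraries against 1 media library, 37 were lower and the median difference was -1.14. The 37 genes lower in both runs stood beside 42% of tested genes. Header tags that recur within a run gave 3 donor pairs, and in these pairs 38, 37 and 37 of the 40 genes were lower with lactate, with median log2 differences of -1.18, -1.03 and -1.09. In all 3 pairs 34 genes were lower, beside 32.8% of tested genes. With donor as a block, in which media replicate 2 and lactate replicate 3 had no partner, 4 of the 40 genes were called, all lower, beside 2.67% of all tested genes called lower and 4.54% higher: Irf7 at -2.45 ± 0.44, Trim25 at -0.73 ± 0.13, Samd9l at -2.11 ± 0.14 and Ifi27l2a at -2.71 ± 0.32. Estimates in that fit were lower for 39 of the 40 genes. Among those not called, Dhx58 gave -2.03 ± 0.49 and Parp14 -0.40 ± 0.25, against -2.15 ± 0.38 and -0.64 ± 0.21 in the main fit. With the same block but only the 8 media and lactate libraries, an alternative added after the data were seen, 26 of the 34 genes then tested were called lower and 1 higher, beside 13.7% and 15.6% of all genes tested there, and the median of these 34 was -0.96.

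Media against naive gave 26 of the 40 genes called lower, beside 29% of all tested genes, and 4 called higher (Dhx58, Bst2, Phf11b and Ifi27l2a), beside 28.5%. The median log2 fold change was -1.39, and it was -1.65 without naive replicate 4. For 18 genes all media libraries lay below all naive libraries, beside 30.5% of tested genes. Lactate against naive gave 34 called lower, beside 32% of tested genes, and 0 called higher by edgeR's quasi-likelihood test, beside 33% of tested genes, with a median of -2.41. At an unadjusted p under 0.05 that test had 1 higher, the likelihood ratio test called 1, and DESeq2 and limma voom called 0. Leaving out naive replicate 4 gave 30 called lower and 5 called higher (Eif2ak2 added) for media against naive, beside 30.5% and 30.8% of all tested genes, and 36 called lower and 1 called higher (Bst2) for lactate against naive, beside 33.2% and 35.3%, with the latter median at -2.74. Among the 34 genes that pass the filter through the activated libraries alone, with all naive libraries kept, media against naive had 21 called lower, beside 23.2% of all such genes, and lactate against naive 28, beside 26.2%.

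The runs differed in size for these comparisons. In the low run, 3 media libraries against 3 naive libraries, 32 of the 40 genes were lower in media with a median difference of -1.56. In the high run, with only media replicate 4 and naive replicate 4, 24 were lower and 16 higher, with a median difference of -0.36. For lactate against naive the median difference was -2.70 among low-run libraries and -1.11 among high-run libraries. The naive library of the high run is the one with low levels of 39 of the 40 genes, so run and library cannot be told apart here. Below, the counts of called genes by role stand beside the same shares of all tested genes called lower: 11.1% in lactate against media, 29% in media against naive and 32% in lactate against naive. The range on leaving out 1 library at a time, and for lactate against media the count with donor as a block, follow in brackets. Statements by role that lactate libraries lay below media libraries stand beside 21.5% of tested genes with that pattern.

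**Figure D2:**
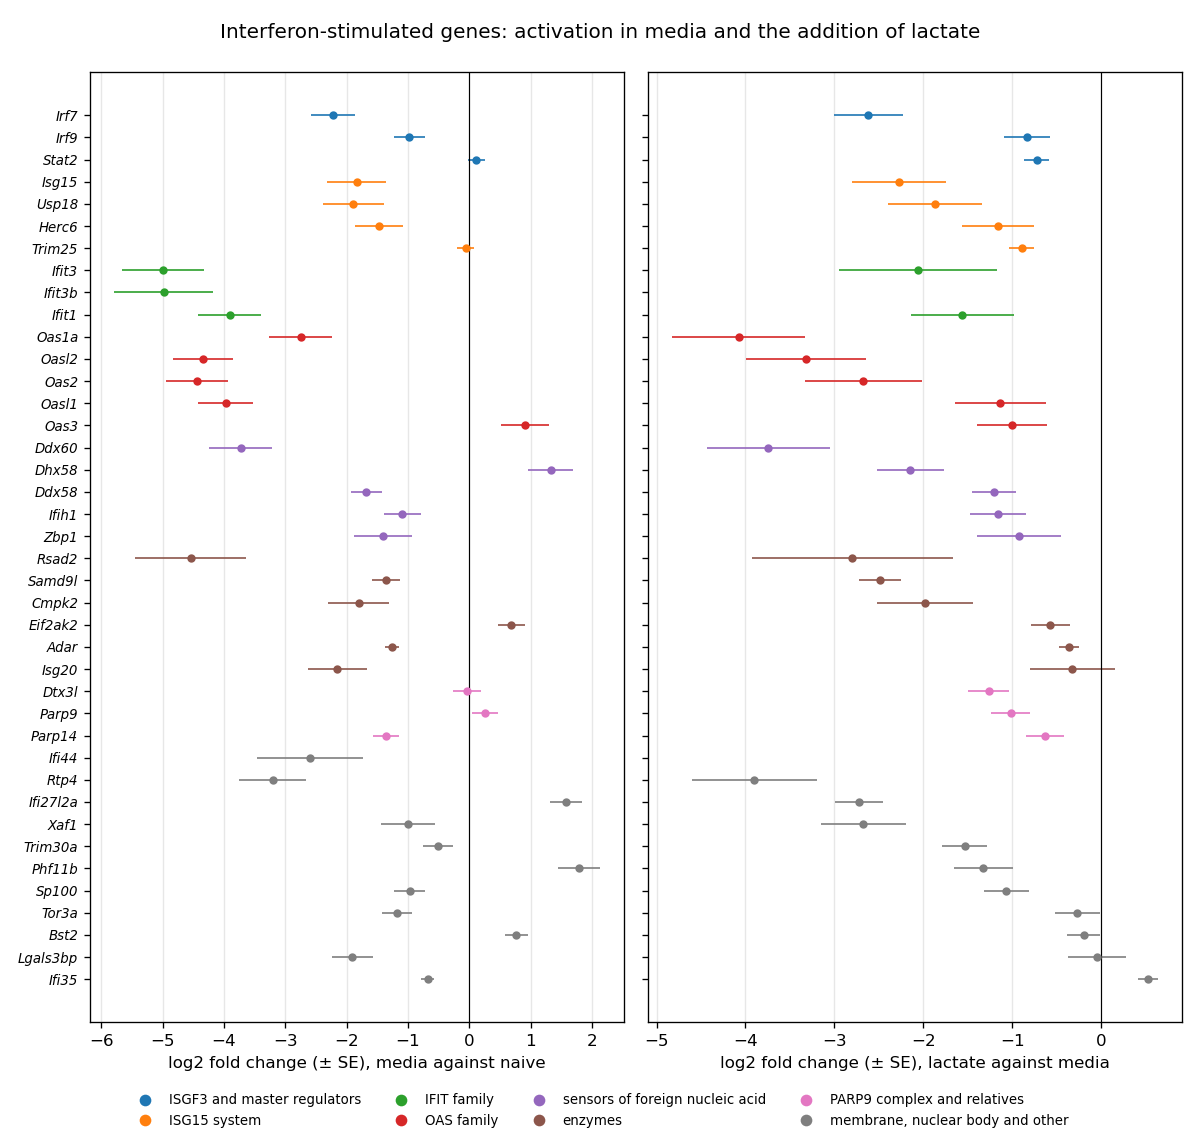
Log2 fold changes with standard errors of the interferon-stimulated genes, grouped by role, for media against naive and lactate against media. Most points lie below 0 in both panels, with medians of -1.39 and -1.30, and Ifit3b and Ifi44 are left out of the lactate panel, where they had too few counts for a fitted fold.

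Stat2 and Irf9 encode subunits of ISGF3, and Irf7 amplifies the response. Stat2 (ENSMUSG00000040033, chr10:128270559-128292849 in GRCm38), which acts with IRF9 in the complex, stood at 112, 106, 127 and 76.7 CPM in naive replicates 1 to 4, at 109, 126, 105 and 115 CPM in media and at 60.3, 74.7, 69 and 70.6 CPM in lactate. All lactate libraries lay below all media and all naive libraries. Naive and media levels overlapped. The log2 fold change was -0.73 ± 0.14 for lactate against media and 0.11 ± 0.14 for media against naive, the latter being -0.02 ± 0.10 without naive replicate 4. Irf7 (ENSMUSG00000025498, chr7:141262706-141266481), the factor that amplifies type I interferon production, was at 134, 112, 139.6 and 46.4 CPM in naive, 20.6, 34.9, 14.6 and 22.9 CPM in media and 2.31, 3.2, 4.1 and 5.49 CPM in lactate. The groups did not overlap: naive was highest, with replicate 4 lowest among its libraries, and lactate was lowest. Irf7 gave -2.62 ± 0.39 on the log2 scale for lactate against media and -2.22 ± 0.36 for media against naive (-2.48 ± 0.27 without naive replicate 4). Irf9, the DNA-binding partner of the complex, ran from 99.3 to 167 CPM in naive, 44.9 to 101 CPM in media and 28.4 to 51.1 CPM in lactate, with overlap between media and each of the other groups. Of the 3 genes, 2 were called lower in lactate against media (2 to 2, donor block 1), 2 in media against naive (1 to 2) and 3 in lactate against naive (3 to 3).

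The ISG15 system conjugates the ubiquitin-like protein ISG15 to other proteins and removes it. Isg15 itself (ENSMUSG00000035692, chr4:156199424-156200818) was measured at 20.6, 31.4, 19.5 and 4.59 CPM in naive, 7.12, 6.71, 4.4 and 3.01 CPM in media and 0.769, 0.681, 1.63 and 1.35 CPM in lactate. Lactate libraries lay below all media libraries. The media libraries overlapped the naive ones only at naive replicate 4. Its log2 fold changes were -2.28 ± 0.53 for lactate against media and -1.84 ± 0.48 for media against naive, the latter -2.16 ± 0.32 without naive replicate 4. The ubiquitin ligase Trim25 (ENSMUSG00000000275, chr11:88999376-89020293), which activates the RNA sensor RIG-I, had 192, 153, 175 and 206 CPM in naive, 161, 225, 149 and 162 CPM in media and 108, 84.1, 88.9 and 93.5 CPM in lactate. It was the gene with no dip in naive replicate 4, and its lactate levels lay below those of both other groups. The difference was -0.90 ± 0.14 on the log2 scale for lactate against media and -0.06 ± 0.14 for media against naive (0.0003 ± 0.14 without naive replicate 4). Usp18, the protease that removes ISG15, ran at 7.06 to 29.9 CPM in naive, 2.95 to 11.5 CPM in media and 0.92 to 2.46 CPM in lactate. Herc6, the mouse ligase for ISG15, ran at 11.9 to 60.7, 10.4 to 23.1 and 6.26 to 8.18 CPM in the same order. For all 4 genes the lactate libraries lay below the media libraries, beside 21.5% of tested genes. Of these, 2, Isg15 and Trim25, were called lower (1 to 4, donor block 1). All 4 were called lower without naive replicate 4, and the call of Isg15 was lost on leaving out media replicate 1 or 2 or lactate replicate 1, 2 or 4. Media against naive called 3 lower (0 to 3) and lactate against naive all 4 (4 to 4).

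IFIT proteins bind viral RNA and block its translation, and their 3 genes in the set stood far lower in activated than in naive cells. Ifit3 (ENSMUSG00000074896, chr19:34583531-34588731) was at 23.8, 18.9, 27.3 and 4.82 CPM in naive replicates 1 to 4, 0.416, 0.437, 0.334 and 1.19 CPM in media and 0.0512, 0, 0.0707 and 0.385 CPM in lactate. Naive libraries lay above all activated ones. Media replicate 4 was the highest media library, and the lowest media library, replicate 3, lay below lactate replicate 4. The media and lactate levels rested on 42 and 10 counts in all, with a log2 fold change of -2.06 ± 0.89 between them, and media against naive gave -4.99 ± 0.66 (-5.32 ± 0.48 without naive replicate 4). Ifit1 ran at 6.72 to 35 CPM in naive, 0.948 to 2.46 CPM in media and 0.141 to 0.867 CPM in lactate. Ifit3b had 8 counts over the media libraries and 2 over the lactate libraries, a ratio of 3.98 with a 95% interval of 0.794 to 38.5, and a ratio of 1.9 to 6.43 on leaving out 1 library. Intervals and floors given here cover counting error only. In lactate against media 0 of the 3 were called by edgeR's quasi-likelihood test (0 to 1, donor block 0), which had 2 lower at an unadjusted p under 0.05, and DESeq2 called 1, limma voom 0 and the likelihood ratio test 0. Ifit1 was called lower without naive replicate 4 (-1.55 ± 0.42). All 3 were called lower in both comparisons with naive (2 to 3 in each), as favoured for Ifit3 and Ifit3b by their passing the filter only through naive libraries. Ifit3b reached 1 CPM in naive replicates 1 to 3 alone. Leaving out any of those took it below the filter, so at most 2 genes could be called there. Ifit3 and Ifit3b are near-identical copies, and since by the study's methods only reads with a single place in the genome were counted, reads that fit both are missing from their counts.

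Oligoadenylate synthetases make the messenger that switches on RNase L, and OASL proteins are their relatives. Oas3 (ENSMUSG00000032661, chr5:120753098-120777661), the most abundant of the 5 by TPM, had 73, 78.6, 96.2 and 15.4 CPM in naive, 147, 144, 112 and 90.2 CPM in media and 73.2, 64, 59 and 50.1 CPM in lactate. Media was the highest group and did not overlap lactate, while the naive range reached into both. Lactate against media gave -1.003 ± 0.39 on the log2 scale, and media against naive gave 0.91 ± 0.39 (0.57 ± 0.18 without naive replicate 4). Oas1a (ENSMUSG00000052776, chr5:120896256-120907521) was at 12.4, 12.7, 11.2 and 3.64 CPM in naive, 1.57, 2.89, 0.725 and 0.69 CPM in media and 0.102, 0.157, 0 and 0.0482 CPM in lactate, where it rested on 6 counts in all. No group overlapped another. The order was naive, media, lactate. Oas1a gave -4.08 ± 0.75 on the log2 scale for lactate against media and -2.75 ± 0.52 for media against naive (-3.03 ± 0.42 without naive replicate 4). By mean TPM, Oas3 went from 31.4 ± 16.5 (SD, n = 4) in naive to 60.8 ± 14.8 in media and 27.6 ± 5.46 in lactate. Oas1a had mean TPM levels of 17.9 ± 7.4, 2.72 ± 1.94 and 0.132 ± 0.118 in the same order.

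Oas2, Oasl1 and Oasl2 shared the pattern of Oas1a between naive and media cells. Oas2 ran at 5.88 to 38.3 CPM in naive, 0.948 to 1.75 CPM in media and 0.145 to 0.283 CPM in lactate. Oasl1 ran at 6.05 to 16.1, 0.437 to 1.19 and 0.102 to 0.578 CPM, and Oasl2 at 11 to 38.4, 0.925 to 2.51 and 0 to 0.283 CPM. Only Oasl1 overlapped between media and lactate among these 3. In the family, 3 of 5 were called lower in lactate against media (2 to 4, donor block 0), 4 in media against naive (4 to 4) and 4 in lactate against naive (4 to 4), Oas3 being the gene not called in the comparisons with naive. Oas1a, Oasl1 and Oasl2 had passed the filter only through naive libraries, which favoured those calls.

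Sensors of foreign nucleic acid formed a group of 5. Zbp1 (ENSMUSG00000027514, chr2:173206612-173218923), which senses Z-form nucleic acid and starts necroptosis, was at 105, 94.3, 183 and 18.7 CPM in naive, 30.7, 55.3, 29.9 and 34.8 CPM in media and 17, 21.2, 18.7 and 22.3 CPM in lactate. Lactate lay below media in all libraries, and naive replicate 4 lay below all media libraries while the other naive libraries lay above them. Zbp1 gave -0.93 ± 0.47 for lactate against media and -1.41 ± 0.47 for media against naive, the latter -1.76 ± 0.25 without naive replicate 4. Within runs, media minus naive was -1.71 for low numbers and 0.89 for high numbers. Ddx60 (ENSMUSG00000037921, chr8:61928087-62038244), a helicase that promotes RIG-I-like receptor signaling, had 56.1, 43.4, 52.3 and 7.79 CPM in naive, 2.54, 4.75, 2.51 and 2.19 CPM in media and 0.307, 0.314, 0.141 and 0.0964 CPM in lactate. The groups did not overlap, and all 4 lactate libraries were below 1 CPM. Lactate against media gave -3.75 ± 0.69 and media against naive -3.73 ± 0.52 on the log2 scale (-4.08 ± 0.26 without naive replicate 4).

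The RNA helicases Ddx58 (RIG-I), Ifih1 (MDA5) and Dhx58 (LGP2) complete the group. Ddx58 ran at 88.8 to 203 CPM in naive, 39.1 to 70.2 CPM in media and 17.8 to 24 CPM in lactate. Ifih1 ran at 11.7 to 45.6, 12.8 to 16.4 and 5.4 to 7.71 CPM. Dhx58, singled out after its values were seen, went the other way on activation, from 11.7 to 45.4 CPM in naive to 70.03 to 104 CPM in media, and stood at 12.1 to 30.8 CPM in lactate. Its log2 fold change was 1.32 ± 0.37 for media against naive (1.03 ± 0.26 without naive replicate 4) and -2.15 ± 0.38 for lactate against media. For all 5 sensors the lactate libraries lay below the media libraries, beside 21.5% of tested genes. Called lower were 3 of 5 with lactate against media (3 to 5, donor block 0) and 3 in media against naive (2 to 4), where Dhx58 was called higher. In lactate against naive 4 were called lower (4 to 5). Without naive replicate 4 the counts were 5, 4 and 5.

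Enzymes that act on RNA, nucleotides or translation numbered 6. Samd9l (ENSMUSG00000047735, chr6:3372257-3399572), an antiviral protein that restrains translation and growth, was at 253, 254, 286 and 226 CPM in naive, 85.9, 163, 68.8 and 78.4 CPM in media and 18.3, 19.6, 16.6 and 16 CPM in lactate. The groups stood apart in the order naive, media, lactate, with media replicate 2 the highest media library. The log2 fold change was -2.49 ± 0.24 for lactate against media and -1.36 ± 0.22 for media against naive (-1.42 ± 0.24 without naive replicate 4). Rsad2 (ENSMUSG00000020641, chr12:26442746-26456452), which encodes viperin, an enzyme that makes a chain-terminating nucleotide, had 52.4, 169, 26.7 and 6.11 CPM in naive, 1.94, 5.02, 1.67 and 2.26 CPM in media and 0.0512, 0, 0.778 and 0.771 CPM in lactate. Its naive levels spread widely, with replicate 2 highest and replicate 4 lowest, and media lay between naive and lactate without overlap. Naive replicate 2 was also the library with the highest red cell sum, 3369 CPM, and the part of red cells in the Rsad2 level was not tested. Rsad2 gave -2.80 ± 1.13 for lactate against media and -4.54 ± 0.91 for media against naive (-4.93 ± 0.68 without naive replicate 4). The lactate difference was -4.32 among low-run libraries and -1.42 among high-run ones.

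The exonuclease Isg20 ran at 6.67 to 45.8 CPM in naive, 2.82 to 7.63 CPM in media and 2.82 to 4.67 CPM in lactate, again with naive replicate 2 highest. The kinase Cmpk2, which lies beside Rsad2, ran at 3.59 to 27.9, 3.73 to 7.48 and 0.786 to 1.84 CPM. Eif2ak2, the kinase PKR that halts translation, ran at 17.7 to 41.6, 47.8 to 68.2 and 35.6 to 40.02 CPM, highest in media. Adar, the adenosine deaminase that edits RNA, ran at 219 to 269, 88.7 to 114 and 67.5 to 89.1 CPM. In lactate against media 1 of the 6, Samd9l, was called lower (1 to 3, donor block 1), and 3 were called without naive replicate 4. In media against naive 5 were called lower (4 to 5), and without naive replicate 4 Eif2ak2 was called higher as well. In lactate against naive 5 were called lower, for which no range is given.

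PARP9 and DTX3L form a complex with ADP-ribosylation and ubiquitin ligase activity that boosts interferon signaling, and PARP14 is a relative of PARP9. Dtx3l (ENSMUSG00000049502, chr16:35926511-35939151) was at 217, 195, 298 and 112 CPM in naive, 172, 258, 177 and 191 CPM in media and 84.4, 79.9, 79.4 and 88 CPM in lactate. All lactate libraries lay below all naive and media libraries. Naive and media overlapped. The log2 fold change was -1.27 ± 0.23 for lactate against media and -0.04 ± 0.23 for media against naive (-0.25 ± 0.16 without naive replicate 4). Parp9 ran at 61.5 to 150.4 CPM in naive, 109 to 162 CPM in media and 60.1 to 70.6 CPM in lactate. Parp14 ran at 123 to 262, 61.6 to 98.6 and 40.4 to 57.4 CPM. Dtx3l and Parp9 were called lower in lactate against media (1 to 3, donor block 0), with Parp14 added without naive replicate 4, Parp14 was the gene called in media against naive (1 to 1), and all 3 were called lower in lactate against naive (2 to 3). Dtx3l and Parp9 overlap by 682 bases in opposite directions, and since whether strand was used in counting is not given, reads from the overlap cannot be assigned with certainty.

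The last 11 genes encode membrane, nuclear body and other induced proteins. Ifi27l2a (ENSMUSG00000079017, chr12:103442167-103443680), a small hydrophobic protein strongly induced by interferon, had 99.9, 70.7, 86.3 and 43.5 CPM in naive, 201, 284, 166 and 245 CPM in media and 22.2, 36.3, 41 and 35.9 CPM in lactate. The groups did not overlap, and here media was highest and lactate lowest. Its log2 fold change was -2.73 ± 0.27 for lactate against media and 1.58 ± 0.26 for media against naive (1.38 ± 0.22 without naive replicate 4). Among the 40 genes it had the highest TPM in naive and media cells, with 551 ± 175 (SD, n = 4) in naive, 1675 ± 375 in media and 229 ± 48.5 in lactate. Ifi44 (ENSMUSG00000028037, chr3:151730922-151749960), a cytoplasmic protein, was at 6.65, 3.66, 2.26 and 0.448 CPM in naive, 0.647, 1.2, 0.0557 and 0.188 CPM in media and 0, 0, 0 and 0 CPM in lactate. It had 40 counts over the media libraries and 0 over the lactate libraries. Scaled to library size, the media counts were 13.3 times a floor of 3 counts over the lactate group, and the lower 95% limit of the fold was 10.3. Media replicate 2 held 22 of the 40 counts, and without it the fold over the floor was 7.94. The median of the set was the same, -1.30, with Ifi44 set at the first of these bounds. Between media and naive, which overlapped, Ifi44 gave -2.60 ± 0.87 (-2.97 ± 0.69 without naive replicate 4).

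**Figure D3:**
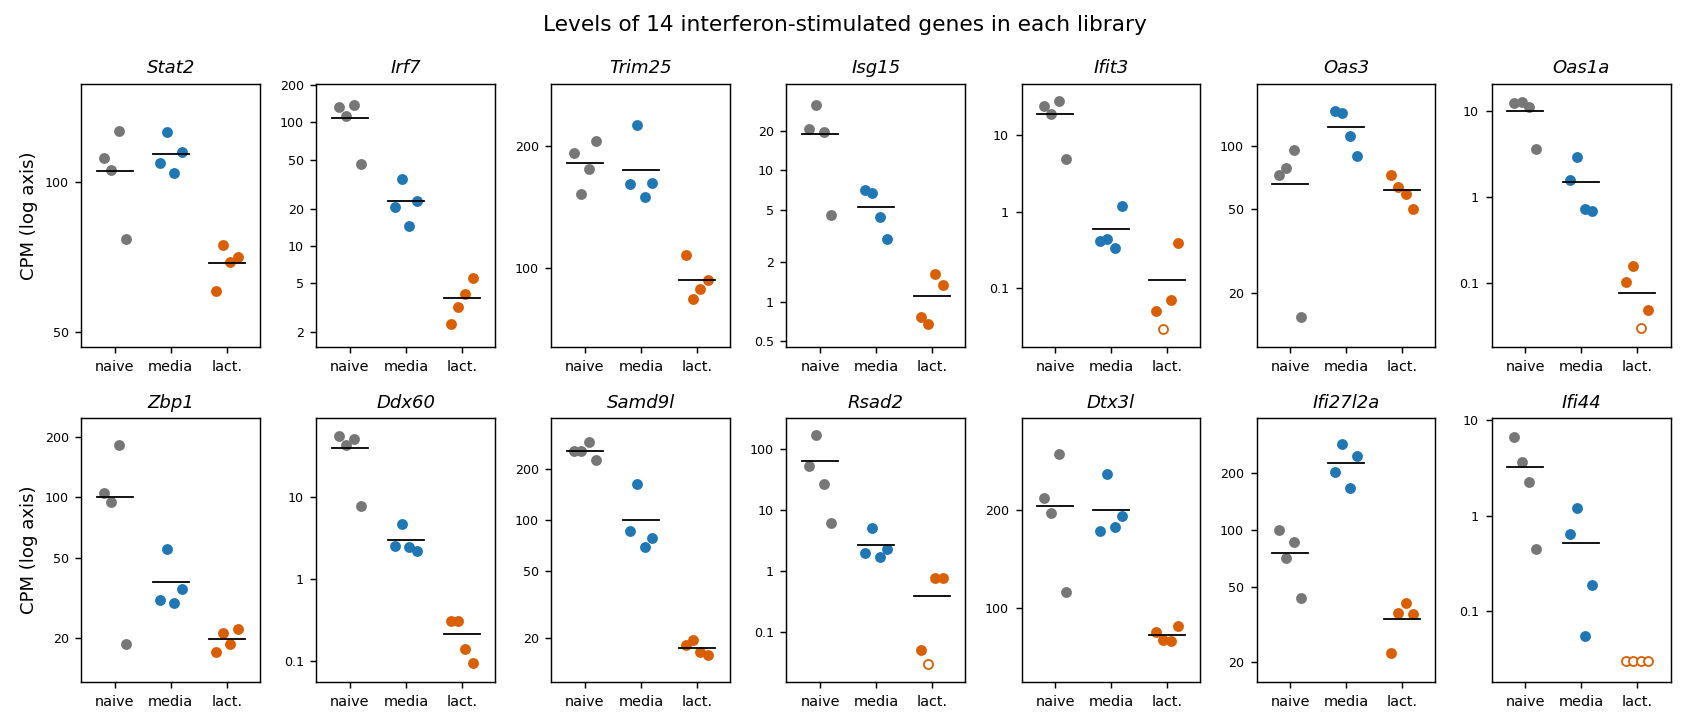
CPM of 14 interferon-stimulated genes in each of the 12 libraries on a log axis, with a black line at each group mean and open circles at the bottom for libraries with a count of 0. Lactate libraries lie below the media libraries for all of them but Ifit3, a pattern held by 21.5% of tested genes. Naive replicate 4 is the lowest naive library for all but Trim25, beside 39.5% of tested genes, and Ifi44 has a count of 0 in all 4 lactate libraries.

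Among the rest of this group, some genes were higher in media than in naive cells, and these were named after their values were seen. Phf11b, a PHD finger protein, ran at 7.73 to 32.8 CPM in naive, 67.9 to 99.9 CPM in media and 28.8 to 42.4 CPM in lactate, with 1.79 ± 0.34 for media against naive (1.48 ± 0.18 without naive replicate 4). Bst2, the tetherin that holds budding virus at the cell surface, ran at 26.6 to 55.1, 69.3 to 81.7 and 58.4 to 79.4 CPM, with 0.77 ± 0.19 for media against naive (0.58 ± 0.11 without naive replicate 4) and -0.20 ± 0.19 for lactate against media. Phf11b has near copies in the genome, and reads that fit several of them were likewise not counted. Ifi35, a protein that forms a complex with NMI, was the gene called higher with lactate, and its levels were 39.95, 37, 38.5 and 36.4 CPM in media and 53.2, 56.8, 56.2 and 52 CPM in lactate. The lactate libraries lay above the media libraries, with a log2 fold change of 0.52 ± 0.11. It was not called without media replicate 2 or without lactate replicate 3, where the estimate was 0.51 in each, nor with donor as a block, where it was 0.50 ± 0.15, but it was called with that block on only the media and lactate libraries.

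Sp100, the nuclear body component, ran at 249.6 to 656 CPM in naive, 221 to 341 CPM in media and 107 to 150.4 CPM in lactate. Trim30a, a tripartite motif protein with near copies in the genome, ran at 88.1 to 224, 106 to 171 and 42 to 47.2 CPM. Xaf1, a partner of the apoptosis inhibitor XIAP, ran at 6.95 to 48.2, 11.2 to 23 and 2.1 to 3.04 CPM. All 3 were lower in each lactate library than in any media library. Rtp4, a chaperone of membrane receptors, ran at 7.28 to 62.6 CPM in naive, 2.9 to 6.49 CPM in media and 0.0707 to 0.482 CPM in lactate. The secreted galectin ligand Lgals3bp ran at 64.6 to 306, 48.7 to 59 and 44.7 to 62.3 CPM, and the torsin ATPase Tor3a at 16.4 to 46.5, 12.8 to 15.7 and 10.8 to 13.5 CPM. Rtp4 fell into 3 separate ranges, while Lgals3bp and Tor3a overlapped between media and lactate. Of the 11 genes, 6 were called lower (4 to 6, donor block 1) and 1 higher in lactate against media, 5 lower (4 to 8) and 3 higher in media against naive, and 8 lower (8 to 9) in lactate against naive. Without naive replicate 4, 8 were lower and 3 higher in media against naive, and 9 lower and 1 higher in lactate against naive.

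The other genes of the pathway came from lists drawn up by function, also with earlier results known. Apart from ligand and receptor genes, those given in full were picked for the largest changes in lactate against media. The p-values given for single genes in that comparison are therefore descriptions and not tests of the lists. Calls in these lists stand beside 11.1% of all tested genes called lower and 13.9% higher in lactate against media, and 29% and 28.5% in media against naive. In lactate against media these shares of all genes were 2.67% and 4.54% with donor as a block, 16.8% and 18.7% without naive replicate 4, 7.14% and 9.78% without lactate replicate 3, and 7.69% and 11% without lactate replicate 1. A donor block fitted on only the media and lactate libraries is named here as the smaller block. Of 11 interferon ligands, only Ifng, the type II interferon of T cells, was in the table. Ifng was at 7.72, 16.5, 9.86 and 1.12 CPM in naive, 5.73, 1.53, 2.84 and 14.5 CPM in media and 213, 43, 119 and 40.6 CPM in lactate. Its level was higher in all lactate libraries than in all others, with overlap between naive and media. Ifng rose with lactate against media (log2 fold change 4.09 ± 0.84, edgeR quasi-likelihood test with Benjamini-Hochberg adjustment, adjusted p = 0.00239). With donor as a block its adjusted p in edgeR was 0.043, with the smaller block 0.00373 and with the title's replicate number as a block 0.0112.

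Receptor and signaling genes, 15 of 16 in the table, had 5 called lower (Ifnar1, Ifnar2, Jak1, Jak2 and Pias1) and 1 higher (Socs1) in lactate against media, and 3 lower (Ifngr2, Il10rb and Jak1) and 3 higher (Stat3, Ptpn2 and Ptpn6) in media against naive. Of the 15 genes these are 33.3% and 6.67%, and 20% and 20%, the latter below the shares of all tested genes. Without naive replicate 4, 5 were lower and 3 higher in media against naive. With donor as a block 1 was called in lactate against media, without naive replicate 4 there were 11 and without lactate replicate 3 there were 3. Ifnar1, the signaling chain of the type I receptor, was at 172, 156, 194 and 239.6 CPM in naive, 168, 249, 189 and 171 CPM in media and 100.03, 84.7, 90.9 and 92.9 CPM in lactate. Lactate libraries lay below all media libraries, and Ifnar1 fell with lactate (-1.08 ± 0.15, edgeR adjusted p = 0.000247) and was called with donor as a block as well (edgeR adjusted p = 0.00983). Ifnar2, its partner chain, was at 71.9, 67.6, 67.4 and 46.1 CPM in naive, 49.98, 53.5, 47.4 and 55.8 CPM in media and 36.7, 39.5, 36.2 and 34.8 CPM in lactate. Lactate libraries lay below all others, and media overlapped naive only at naive replicate 4. Ifnar2 gave -0.49 ± 0.13 (edgeR adjusted p = 0.00929), and leaving out any library but naive replicate 4 took its adjusted p above the threshold, to at most 0.0288 in edgeR, as did donor as a block, at 0.106, and the smaller block, at 0.0108.

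The chains of the interferon-gamma receptor were both lower in estimate with lactate but not called in the main fit. Ifngr1 was at 271, 241, 236 and 1008 CPM in naive, 275, 411, 344 and 282 CPM in media and 136, 152, 89.6 and 111 CPM in lactate, with naive replicate 4 far above every other library. Its log2 fold change for lactate against media was -1.42 ± 0.42 (edgeR adjusted p = 0.018, 6.54e-05 without naive replicate 4, 0.186 with donor as a block and 0.000311 with the smaller block). Ifngr2 was at 70.9, 56, 54.4 and 136 CPM in naive, 11.2, 18.4, 18.9 and 10.4 CPM in media and 4.3, 9.49, 8.21 and 6.79 CPM in lactate. The ranges of the groups were separate, with naive highest, and naive replicate 4 was the highest library. Its log2 fold change was -1.04 ± 0.34 (edgeR adjusted p = 0.0284, 0.0056 without naive replicate 4, 0.102 with donor as a block and 0.00323 with the smaller block). Il10rb, shared by the receptors of IL-10 and type III interferon, was at 66.2, 57.2, 48.9 and 49.97 CPM in naive, 39.997, 38.5, 34.9 and 37.1 CPM in media and 35.4, 42.8, 28.6 and 28.7 CPM in lactate. Media and lactate overlapped, and both lay below naive. It gave -0.15 ± 0.14 for lactate against media and was not called (edgeR adjusted p = 0.433). Socs1, the feedback inhibitor of JAK kinases, was at 32.4, 29.6, 47.5 and 56.5 CPM in naive, 41.7, 17.5, 35.6 and 68.9 CPM in media and 127, 127, 99.8 and 94.8 CPM in lactate. All lactate libraries were above all others, and Socs1 rose with lactate (1.45 ± 0.33, edgeR adjusted p = 0.00444), a call lost on leaving out media replicate 1 or 3, or any of lactate replicates 1 to 3, with an adjusted p of at most 0.0158, and with donor as a block, at 0.0297, but kept with the smaller block, at 0.00395.

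Of the genes that induce interferon or control its induction, 21 of 24 were in the table. In lactate against media 4 were called lower (Ikbke, Samhd1, Tnfaip3 and Irf2) and 4 higher (Rnaseh2a, Rnaseh2b, Rnaseh2c and Irf8). In media against naive 10 were called lower and 3 higher (10 and 4 without naive replicate 4). Of the 21 genes these are 19% and 19%, and 47.6% and 14.3%. With donor as a block 3 were called in lactate against media. Ikbke, the kinase that phosphorylates IRF3 and IRF7, was at 343, 279, 439.5 and 365 CPM in naive, 103, 159, 105 and 106 CPM in media and 45.2, 60.3, 40.6 and 48.8 CPM in lactate. It stood in 3 separate ranges and fell with lactate (-1.28 ± 0.18, edgeR adjusted p = 0.000249). Irf2, a repressor and competitor at interferon-responsive promoters, was at 129, 118, 143 and 137 CPM in naive, 114, 170.2, 119.7 and 130.3 CPM in media and 59.7, 57.8, 60.8 and 67.8 CPM in lactate. Lactate lay below both other groups, which overlapped, and Irf2 fell with lactate (-1.12 ± 0.13, edgeR adjusted p = 8.06e-05). Tlr3, an endosomal RNA receptor, was at 9.98, 13, 10.6 and 1.01 CPM in naive and had 1 count over the media libraries and 0 over the lactate libraries, too few for a fold.

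Further interferon-stimulated genes outside the set, 46 of 51 in the table, had 17 called lower and 0 higher by edgeR in lactate against media, with a median log2 fold change of -0.73. At an unadjusted p under 0.05 edgeR had 2 higher, and the likelihood ratio test, DESeq2 and limma voom called 0 higher. In media against naive 24 were called lower and 2 higher, or 29 and 2 without naive replicate 4. The shares of the 46 genes called lower were 37% and 52.2%. Without naive replicate 4 the lactate count was 27, and with donor as a block it was 6. Mx1, a dynamin-like GTPase that blocks influenza virus, was at 21.1, 25.7, 27.3 and 3.59 CPM in naive, 6.43, 6.55, 4.07 and 5.89 CPM in media and 1.13, 0.576, 0.707 and 1.2 CPM in lactate. Lactate lay below media, and naive replicate 4 lay below the media libraries. Mx1 fell with lactate (-2.64 ± 0.53, edgeR adjusted p = 0.00201, and 0.0394 with donor as a block, 0.000383 with the smaller block and 0.0443 by limma voom). Ifit1bl1, a relative of Ifit1, was at 42.4, 45.1, 81 and 47.9 CPM in naive, 0.601, 3.001, 1.003 and 0.313 CPM in media and 0.0512, 0.105, 0.212 and 0.0964 CPM in lactate. It was high in naive cells, naive replicate 4 included, and its groups did not overlap. Ifit1bl1 fell with lactate (-3.41 ± 0.78, edgeR adjusted p = 0.00434), a call lost without lactate replicate 1, 2 or 4, with an adjusted p of at most 0.0167, with donor as a block, at 0.015, and by limma voom, at 0.0264. Gm4951, an interferon-inducible GTPase gene, was at 5.18, 3.24, 3.39 and 0.224 CPM in naive, 0.832, 2.13, 0.613 and 1.63 CPM in media and 0.102, 0.262, 0.212 and 0.289 CPM in lactate. Its lactate libraries lay below its media libraries, with -2.54 ± 0.79 on the log2 scale, and it was not called (edgeR adjusted p = 0.022). Of 24 alternatives 4 called it: leaving out naive replicate 4, at 0.00107, the likelihood ratio test, DESeq2 and a threshold of 0.05.

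Targets of interferon-gamma, 26 of 27 in the table, had 9 called lower and 0 higher by edgeR in lactate against media, with a median of -0.88. At an unadjusted p under 0.05 edgeR had 0 higher, as had the likelihood ratio test, DESeq2 and limma voom after adjustment. In media against naive 7 were called lower and 4 higher, or 9 and 4 without naive replicate 4. The shares of the 26 genes called lower were 34.6% with lactate and 26.9% in media against naive, the latter close to the 29% of all tested genes. Without lactate replicate 1 the lactate count was 5, and with donor as a block it was 1. Gbp10, a guanylate-binding protein with near copies in the genome, was at 2.93, 2.76, 19.4 and 0.728 CPM in naive, 5.22, 19, 5.74 and 6.33 CPM in media and 0.0512, 0.367, 0.495 and 0.723 CPM in lactate. Media replicate 2 was the highest media library, and all lactate libraries lay below media. Gbp10 fell with lactate (-4.45 ± 1.00, edgeR adjusted p = 0.00394), a call lost on leaving out media replicate 2, or any of lactate replicates 1 to 3, with an adjusted p of at most 0.0139, and with donor as a block, at 0.0599, but kept with the smaller block, at 0.00053. Iigp1, an immunity-related GTPase, was at 17, 19.5, 93.7 and 12.1 CPM in naive, 11.9, 45.6, 12.1 and 30.03 CPM in media and 2.56, 2.1, 2.41 and 7.47 CPM in lactate. Lactate lay below media and naive libraries, and the log2 fold change was -2.76 ± 0.73 (edgeR adjusted p = 0.0102, not called). It was called without naive replicate 3, naive replicate 4 or lactate replicate 4, with edgeR adjusted p down to 0.00172, and with the smaller block, at 0.000248, while donor as a block gave 0.086. Ciita, the master regulator of MHC class II that B cells and myeloid cells express, was at 90.8, 116, 66 and 45.3 CPM in naive, 0.601, 0.491, 0.836 and 0.313 CPM in media and 0.0512, 0.105, 0 and 0 CPM in lactate. It had 42 counts over the media libraries and 3 over the lactate libraries, a ratio of 13.9 with a 95% interval of 4.45 to 70.3, and a ratio of 9.997 to 30.9 on leaving out 1 library. Its call (edgeR adjusted p = 0.00316) was lost without lactate replicate 1 or 4, with an adjusted p of at most 0.0112, with donor as a block, at 0.0277, and by limma voom. The B cell marker Pax5 had a lower estimate with lactate as well, -2.16 ± 0.51, and the part of B cells in the Ciita level was not tested.

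In the genome the 40 genes lay on 15 chromosomes (GENCODE M21 annotation, GRCm38). Another gene of the set lay within 1 Mb for 15 of them, in 6 places. The OAS genes filled 2 of these: Oasl2 and Oasl1 at chr5:114896936-114937915, and Oas2, Oas3 and Oas1a at chr5:120730333-120907521. Ifit3, Ifit3b and Ifit1 lay at chr19:34583531-34650009, Parp14, Dtx3l and Parp9 at chr16:35832874-35972605, and Rsad2 with Cmpk2 at chr12:26442746-26479837. Dhx58 and Ifi35, which differed in direction with lactate, lay at chr11:100694884-101458698. In the cluster with Oas3, the neighbours Oas2 and Oas1a had log2 fold changes of -4.44 and -2.75 for media against naive while Oas3 had 0.91 (-4.79, -3.03 and 0.57 without naive replicate 4). No gene of the set shared over 20% of its exon bases with another gene, and 26 shared none.

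Promoter sequences, 250 bases before to 50 after the gene start, were matched for 31 of the 40 genes from RefSeq (GRCm38.p6). Usp18, Oas2, Rtp4, Dhx58, Zbp1, Parp9, Parp14, Tor3a and Ifi27l2a had no entry. The core of the interferon-stimulated response element, searched as GAAANNGAAA on both strands (TTTCNNTTTC on the other strand), was present in 15 of 31 (48.4%). It was present in 42.1% of the promoters of the further interferon-stimulated genes, 16 of 38, and in 3.97% of the promoters of all tested genes, 393 of 9898. The gamma-activated site, searched as TTCNNNGAA, which reads the same on both strands, was present in 6 of 31 (19.4%), beside 10.5% of the further interferon-stimulated genes, 4 of 38, and 8.35% of all, 826 of 9898. Among targets of interferon-gamma the shares were 55.6% for the response element core and 50% for the gamma-activated site, of 18 promoters. The closing GAA of a gamma-activated site can also open a response element core, so the matches can share bases. A match is a description of the letters in the window and not a shown binding site.

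Windows of 80 bases are printed for genes whose levels are given above, to show the motif in its context, written 5′ to 3′ on the strand of the gene with the core in capitals. They lie at chr10:128270248-128270327 for Stat2 and chr8:61927999-61928078 for Ddx60 (plus strand), at chr4:156200852-156200931 for Isg15, chr5:120777690-120777769 for Oas3, chr5:120907526-120907605 for Oas1a and chr12:26456528-26456607 for Rsad2 (minus strand), and at chr19:34583338-34583417 for Ifit3 and chr19:34607734-34607813 for Ifit3b (plus strand). Capitals that open with TTTC mark the core on the opposite strand, and longer capitals mark overlapping matches.
Stat2: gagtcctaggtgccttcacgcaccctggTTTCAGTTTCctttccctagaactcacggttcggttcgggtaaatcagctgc
Isg15: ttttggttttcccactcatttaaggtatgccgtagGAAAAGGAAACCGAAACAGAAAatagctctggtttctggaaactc
Ifit3: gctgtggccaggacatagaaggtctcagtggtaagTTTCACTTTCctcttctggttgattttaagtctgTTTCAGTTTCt
Ifit3b: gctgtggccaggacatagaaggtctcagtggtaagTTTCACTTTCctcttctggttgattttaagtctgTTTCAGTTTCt
Oas3: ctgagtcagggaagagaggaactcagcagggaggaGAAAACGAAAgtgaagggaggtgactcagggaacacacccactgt
Oas1a: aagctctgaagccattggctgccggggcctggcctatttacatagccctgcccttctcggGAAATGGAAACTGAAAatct
Ddx60: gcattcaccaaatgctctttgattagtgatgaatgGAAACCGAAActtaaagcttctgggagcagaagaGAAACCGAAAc
Rsad2: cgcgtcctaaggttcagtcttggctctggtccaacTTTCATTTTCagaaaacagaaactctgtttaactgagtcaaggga
The windows of Ifit3 and Ifit3b hold the same 80 bases, with 2 cores each. Irf7, Trim25, Samd9l, Dtx3l and Ifi44 had a promoter in the table without a match to the core in this window.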

How the data were processed

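The authors deposited gene counts of 12 libraries from naive, media and lactate CD8+ T cells. Per the labels and the study's methods, reads were demultiplexed with bcl2fastq (2.20.0.422), aligned with STAR (2.7.5b) to GRCm38 (mm10), stripped of PCR duplicates, and counted where they mapped uniquely with featureCounts, whose strand setting is not given in the sources used here. From the counts, TMM-scaled CPM and TPM were computed, the latter with the deposited gene lengths. The 13767 of 13780 genes that reached 1 CPM in a minimum of 3 libraries were fitted with edgeR 4.0.16 (quasi-likelihood, R 4.3.3), group as the only term, two-sided, at an adjusted p of at most 0.01. Alternatives used limma 3.58.1 voom, DESeq2 1.42.0, other scalings, filters and thresholds, blocks and leaving out each library.

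The 40 genes, the other lists, the markers and the roles were chosen with earlier results of these data known. In each role, the gene with the highest mean TPM and the gene with the largest absolute log2 fold change between lactate and media are given in full. In each other list these are the 3 largest such changes, and every ligand and receptor gene.

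By replicate number in the titles, deviations from the media and lactate means correlated at 0.374, 0.297, 0.0038 and 0.553, and numbers 1 and 4 also pair libraries of the same donor. Donors were read from header tags that recur within a run of library numbers, which the labels do not state outright, and the 3 resulting pairs correlated at 0.374, 0.211 and 0.553. Per the study's design text, activated cells came from 5 mice, the number that tag and run together give. A figure legend of the study gives 4 mouse donors per condition, naive cells included.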

Additional observations from a re-analysis of the deposited data

Results flagged for a closer look

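In each group of 4 libraries, the highest or lowest level of each of the 40 genes was compared with the other libraries of that group. The rule marks about 1 in 20 groups by chance where groups are independent, and 9 of 120 were marked. Since the 120 groups share 12 libraries, that rate is no yardstick for the 9. In naive cells, replicate 4 lay far below the other naive libraries for Oas1a (3.64 CPM), Oas2 (5.88 CPM), Cmpk2 (3.59 CPM) and Eif2ak2 (17.7 CPM). In media, replicate 2 lay far above the other media libraries for Ddx58 (70.2 CPM), Trim25 (225 CPM), Parp14 (98.6 CPM) and Ddx60 (4.75 CPM), and replicate 4 lay far above them for Ifit3 (1.19 CPM).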

How the results depend on the processing

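The counts of called genes and the medians, 10 results in all, were recomputed 256 times under other settings. Of these values, 234 stayed within 1.5 times the count or, for medians, within 1 SD. That SD was the spread between libraries of a group in the median log2 CPM of the 40 genes, pooled over the groups compared. In lactate against media, donor as a replicate block gave 4 called genes of the set, 6 further interferon-stimulated genes, 1 receptor or signaling gene, 3 induction genes and 1 interferon-gamma target, and with only the media and lactate libraries it gave 16 interferon-gamma targets and a median of -0.96 over the 34 genes of the set tested there, which is not comparable with -1.30 over all 40. That block could not be fitted against naive cells, which carry no donor tag. An adjusted p of at most 0.05 gave 27 further interferon-stimulated genes, 10 receptor genes and 15 interferon-gamma targets, and a change of at least 2-fold gave 10, 2 and, for induction genes, 3. Receptor genes numbered 10 by the likelihood ratio test, 10 by DESeq2 and 11 with only the compared groups, where interferon-gamma targets numbered 14, against 15 by DESeq2. Shares of all tested genes called in lactate against media moved as well. At 0.05 they were 18.9% lower and 20.8% higher, and with at least 2-fold 4.84% and 4.21%. By the likelihood ratio test they were 14.5% and 16.3%, by DESeq2 16.8% and 16.3%, and with only the compared groups 17.2% and 19.8%. With donor as a block they were 2.67% and 4.54%, and with that block on only the media and lactate libraries 13.7% and 15.6%. Leaving out 1 library at a time gave 14 to 29 called genes of the set in lactate against media, 22 to 35 in media against naive and 33 to 37 in lactate against naive, with medians of -1.47 to -1.24, -1.68 to -1.32 and -2.74 to -2.27. It gave 12 to 27 further interferon-stimulated genes, 3 to 11 receptor genes, 7 to 8 induction genes and 5 to 13 interferon-gamma targets. Of all tested genes, 6.66% to 16.8% were then called lower and 9.76% to 18.7% higher in lactate against media. In media against naive these shares ran from 25.7% to 30.5% and from 25.2% to 30.8%. In lactate against naive they ran from 29% to 34% and from 29.2% to 35.3%. Among 65 single genes, 215 of 1716 values changed their call, and 3 no longer had the same sign, none of them called: Lgals3bp turned positive with a term for library run (0.0708) and without lactate replicate 2 (0.0267), against -0.137 without lactate replicate 4, and Tlr3, with 1 count in media, became 0 without media replicate 4, against -1.91 without media replicate 1. The replicate number as a block gave 19 called genes of the set in lactate against media, beside 10.4% of all tested genes called lower and 13.2% higher. The cause of these changes was not tested. Genes with few counts after activation, such as Ifi44 and Ifit3b, are limited by depth: the fold of Ifi44 over its floor ran from 7.94 to 17.1 on leaving out libraries.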
